A study of Drosophila melanogaster with 8 samples.

Results

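The genes described here are sim, trh, tgo, sima and dysf, which encode transcription factors of the bHLH-PAS family, together with vvl and rib, which act beside them in the trachea and the midline. These 7 genes were taken by symbol from the 17730 genes of the deposited tables. Of the listed symbols 6 matched a row exactly, and the remaining one, dys, is an older name of dysfusion, whose row carries the symbol dysf (FBgn0039411). RefSeq also lists dys as a synonym of Dys and Dg, genes of the dystrophin complex that encode no PAS domain, and these were not used.

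Messenger RNA of cultured Drosophila melanogaster cells was sequenced, 4 libraries for each of 2 lines, every library from its own flask. The line ML-DmD17-c3, called D17-c3 here, goes back to imaginal discs, the larval precursors of adult appendages. S2-DRSC belongs to the S2 cells, which were started from embryos and carry features of hemocytes, the blood cells of the fly. No treatment or genetic change is given for either line. Each line is 1 stock, so a difference between them is a difference between these cultures and not between tissues.

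Proteins with a basic helix-loop-helix and a PAS domain bind DNA as pairs. In flies Tango (tgo), the orthologue of mammalian ARNT, is the partner that Single-minded (sim), Trachealess (trh), Dysfusion (dysf), Similar (sima) and Spineless (ss) share. Which partner is present decides the programme: Single-minded directs the ventral midline of the nerve cord, Trachealess the tracheal tubes, Dysfusion the cells that fuse tracheal branches, and Similar, the orthologue of HIF-1alpha, the response to low oxygen. Ventral veins lacking (vvl), a POU-domain factor, cooperates with Single-minded and Trachealess, and Ribbon (rib), a BTB-domain factor, shapes tracheal and salivary tubes.

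Total expected counts were 76822525 to 91074700 in D17-c3 and 83612326 to 110163700 in S2-DRSC. Of 9 imaginal disc markers 8 were tested, and all 8 were higher in D17-c3, with a summed level of 350 to 449 TPM (the share of a gene in all transcripts, a level per length) against 72.6 to 86.6 TPM in S2-DRSC, while Dll stayed at or below 0.05 TPM in every library. Of 10 hemocyte markers 1 was called toward D17-c3 and 7 toward S2-DRSC, while NimC1 and He had no call. Over all genes tested 39.1% were called toward D17-c3 and 36.1% toward S2-DRSC. The marker called toward D17-c3 was srp, with a mean of 138 TPM in D17-c3 and 94.4 TPM in S2-DRSC. The list summed to 206 to 323 TPM in D17-c3 and 9079 to 11054 TPM in S2-DRSC. Most of the S2-DRSC sum was Nplp2 alone, at 7430 to 9374 TPM. Markers of neurons and glia, muscle and fat body summed to at most 28.2 TPM per list in any library, and in the fat body list to at most 1.31 TPM. D17-c3 replicate 2 was the library least like its group (mean correlation of log2 expression with its line 0.984, against 0.991 to 0.994 for the other D17-c3 libraries), and its hemocyte markers did not move together: the list summed to 323 TPM, against 206 to 274 TPM in the other D17-c3 libraries, with He at 57.9 TPM against 6.63 to 9.77 TPM but Hml at 16.3 TPM against 33.9 to 36.8 TPM.

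The lines shared the general factors tgo and sima and differed in the specialised ones. D17-c3 expressed sim, the midline gene, and had dysf only at the edge of detection, while S2-DRSC expressed a low level of dysf and had sim only at the edge of detection. The tracheal factors trh, rib and vvl were low or near the floor in both. In bulk RNA fewer cells that express a gene and less RNA per cell cannot be told apart.

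**Figure D1:**
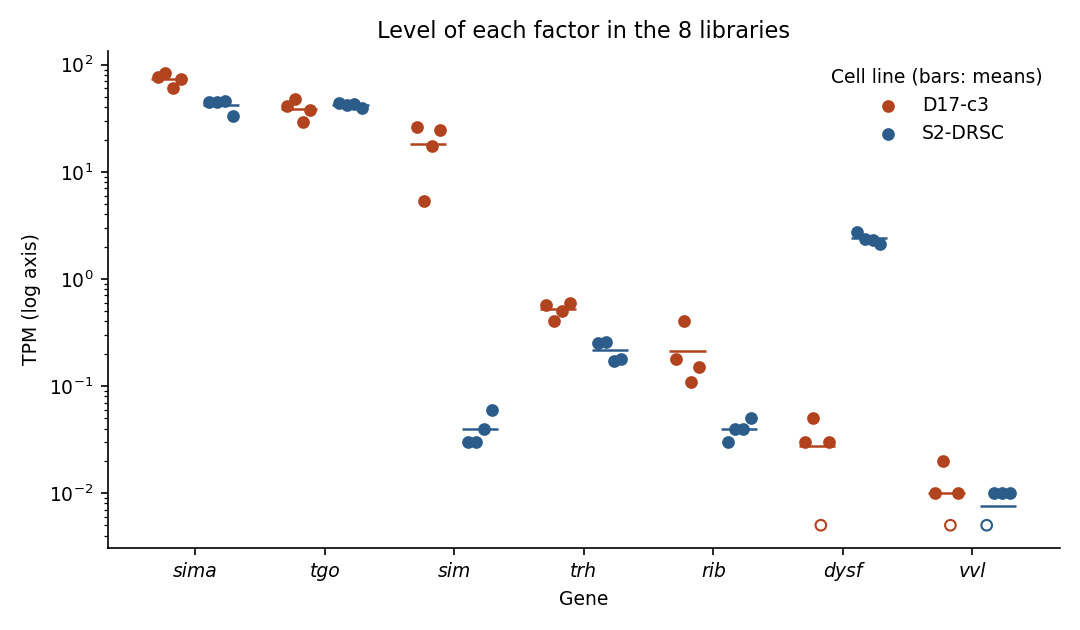
Level of each factor in TPM (log axis) in the 4 D17-c3 and 4 S2-DRSC libraries, with a bar at each mean and open circles for libraries listed at 0, drawn at the foot of the axis. The sim and dysf levels separate the lines in opposite directions, and the tgo levels overlap.

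The shared partner tgo (3R, 9016773 to 9020022, minus strand, BDGP6) was at 40.9, 48.2, 29.2 and 37.6 TPM in D17-c3 replicates 1 to 4, against 43.7, 41.6, 42.7 and 39.3 TPM in S2-DRSC replicates 1 to 4. These levels overlapped, and on this scale they lay above those of 79.7% of all genes in D17-c3 and 82.1% in S2-DRSC. On counts scaled by TMM, a method that assumes most genes are equal, tgo averaged 78.7 ± 9.88 CPM (a gene's share of all counts in a library, scaled like TPM but not per length) in D17-c3 and 98.6 ± 1.69 CPM in S2-DRSC (SD, n = 4 each), with a log2 fold change of -0.33 ± 0.09 (D17-c3 over S2-DRSC ± SE, edgeR quasi-likelihood test, adjusted p = 0.00764). That call ended with library totals in place of TMM (log2 -0.16, edgeR adjusted p = 0.163) and in the limma tests on log2(TPM + 1) and log2(TPM + 0.1) (log2 -0.12 in both, adjusted p = 0.444 in the first). The difference in tgo therefore turned on the scaling, with the sign the same in all 16 alternatives.

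Of the 7 genes, 6 were tested by edgeR over 11606 genes, 4 had an adjusted p under 0.05 toward D17-c3 and 2 toward S2-DRSC. Among all tested genes 75.2% were called, 39.1% toward D17-c3 and 36.1% toward S2-DRSC, so a call alone sets no gene apart. The test took genes with at least 0.113 CPM, or 10 counts at the median library size, in 4 libraries. sim and rib reached this in 4 D17-c3 libraries and in 1 and 2 S2-DRSC libraries, and dysf in 1 D17-c3 and 4 S2-DRSC libraries, so these genes entered through the line where they were high. vvl reached it in no library and was not tested. Some genes of the marker lists above and of the lists below, among them en, nub, oc and Oli, also entered through the line where they were high. Over all genes tested the log2 fold changes had a median of 0.04, which moved to 0.21 with library totals and to 0.18 and 0.25 on log2(TPM + 1) and log2(TPM + 0.1), where 62.9% of the calls were toward D17-c3 in place of 52%.

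**Figure D2:**
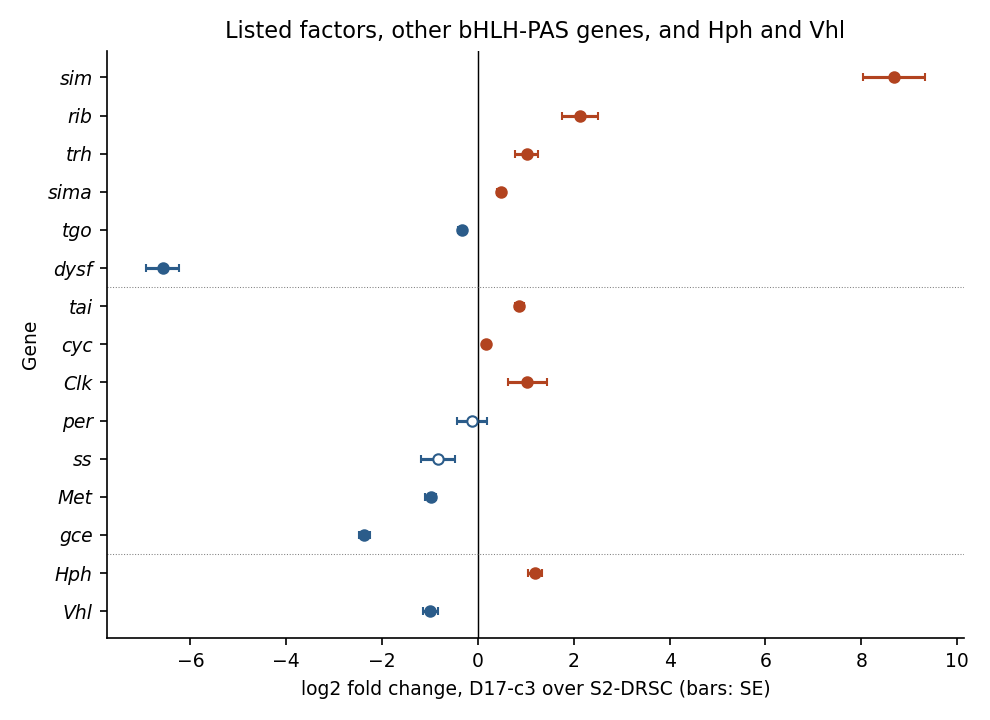
Fitted log2 fold change (D17-c3 over S2-DRSC, bars are SE) of the 6 tested factors, the 7 other PAS genes (bHLH-PAS in the figure title) and the 2 regulators of Sima protein. Filled points had an adjusted p under 0.05 and open points did not. The extremes are sim at 8.68 and dysf at -6.57, with tgo and sima near 0.

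The oxygen-regulated factor gene sima (3R, 30058311 to 30121798, plus strand) had the highest level of the group in D17-c3, with 76.0, 83.1, 60.2 and 72.9 TPM in replicates 1 to 4, against 45.1, 44.7, 45.7 and 33.4 TPM in S2-DRSC. Every D17-c3 library lay above every S2-DRSC library. In counts it averaged 278 ± 10.4 CPM in D17-c3 and 198 ± 22.0 CPM in S2-DRSC (SD, n = 4 each; log2 0.49 ± 0.09, edgeR adjusted p = 0.000637). S2-DRSC replicate 4 lay apart from the other S2-DRSC libraries, and without it the log2 fold change was 0.38 (edgeR adjusted p = 0.0012). In the limma tests on TPM it was 0.78 and 0.79.

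The midline gene sim (3R, 13057755 to 13078124, plus strand) reached 26.3, 5.29, 17.2 and 24.3 TPM in D17-c3, against 0.03, 0.03, 0.04 and 0.06 TPM in S2-DRSC. The lines were fully separated, but D17-c3 replicate 2 held far less sim than the other 3. In reads, this was 946 to 5218 counts per D17-c3 library and 7 to 11 counts per S2-DRSC library. The log2 fold change was 8.68 ± 0.65 (edgeR adjusted p = 1.61e-06), and 9.0 without D17-c3 replicate 2 (edgeR adjusted p = 4.84e-11). In D17-c3 the mean level was 18.3 ± 9.49 TPM (SD, n = 4), or 22.6 TPM without replicate 2, above those of 68.2% of all genes, against 29.2% of genes in S2-DRSC.

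Its counterpart dysf (3R, 26076592 to 26098711, minus strand) was at 0.03, 0.05, 0 and 0.03 TPM in D17-c3 and at 2.75, 2.37, 2.29 and 2.12 TPM in S2-DRSC. The S2-DRSC libraries were alike, with 513 to 729 counts each, while D17-c3 libraries held 1 to 10 counts, one of them under a floor of 3 counts. The log2 fold change was -6.57 ± 0.35 (edgeR adjusted p = 1.56e-07). Even in S2-DRSC, dysf stood well below its partner tgo.

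The tracheal selector gene trh (3L, 366524 to 392633, minus strand) was low in both lines, at 0.57, 0.40, 0.50 and 0.60 TPM in D17-c3 and 0.25, 0.26, 0.17 and 0.18 TPM in S2-DRSC. These groups did not overlap (log2 1.02 ± 0.23, edgeR adjusted p = 0.00301). Its exons share 525 bases, 9.54% of its exonic length, with lncRNA:CR45378 on the same strand, so part of its counts could belong to that RNA. The RNA itself held 1 to 17.6 expected counts per D17-c3 library and 1.23 to 8.92 per S2-DRSC library, against 103 to 165 counts of trh in D17-c3 and 53.8 to 99.1 in S2-DRSC.

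The BTB factor gene rib (2R, 19270078 to 19281396, plus strand) was at 0.18, 0.40, 0.11 and 0.15 TPM in D17-c3, against 0.03, 0.04, 0.04 and 0.05 TPM in S2-DRSC. Replicate 2 was the highest D17-c3 library here, the reverse of sim. The log2 fold change was 2.14 ± 0.38 (edgeR adjusted p = 0.000578), and 1.72 without that library (edgeR adjusted p = 0.000116). Libraries held 29 to 96 counts in D17-c3 and 9 to 15 in S2-DRSC.

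The POU factor gene vvl (3L, 6790158 to 6794941, plus strand), a gene with no intron in the annotation, had 14 counts over all D17-c3 libraries and 10 over all S2-DRSC libraries. Levels ran from 0 to 0.02 TPM in D17-c3 and from 0 to 0.01 TPM in S2-DRSC. A difference was not detectable at this depth.

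Ordered by level in D17-c3, sima came first, then tgo, sim, trh, rib, dysf and vvl. The sima, tgo and sim libraries did not overlap with each other, trh and rib met at 0.40 TPM, and dysf and vvl overlapped. In S2-DRSC the order was sima and tgo, whose libraries overlapped, then dysf and trh, each apart from its neighbours, then sim and rib, which overlapped, and vvl.

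Because the partners share tgo, their levels were also summed and set against it, as a description of messenger RNA and not of protein. The sum of sima, sim, dysf, trh and ss was 78.0 to 103 TPM in D17-c3 and 35.9 to 48.3 TPM in S2-DRSC. Relative to tgo this was a ratio of 2.41 ± 0.38 in D17-c3 and 1.07 ± 0.11 in S2-DRSC (SD, n = 4 each), with 1.84 as the lowest D17-c3 value and 1.14 as the highest S2-DRSC value. The gene sima alone had a ratio to tgo of 1.90 ± 0.14 in D17-c3 and 1.01 ± 0.11 in S2-DRSC. It made up 79.8% of the partner sum in D17-c3 on average (73.8% to 93.5%) and 93.9% in S2-DRSC (93.2% to 94.7%). In D17-c3 nearly all of the remainder was sim, with a share of 5.95% in replicate 2 and up to 25.5% elsewhere.

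**Figure D3:**
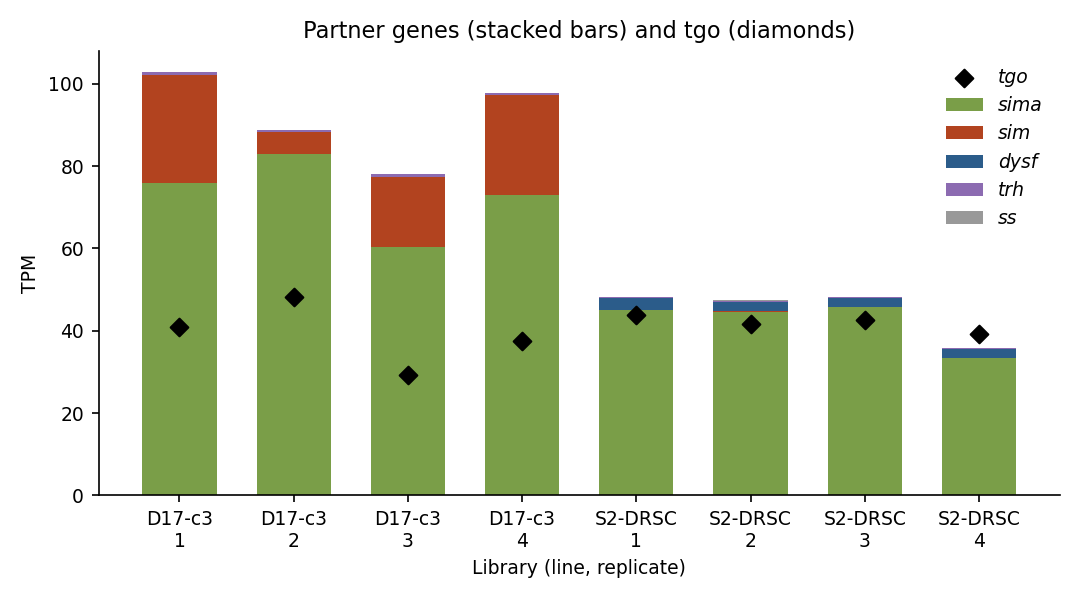
Stacked bars give the TPM of the 5 genes whose proteins pair with Tango in each library, and diamonds the TPM of tgo. In D17-c3 the stack rises 1.84 to 2.67 times as high as tgo, and in S2-DRSC it reaches 0.913 to 1.14 times tgo.

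The tables also give, for each gene and library, the mean length of its transcripts weighted by their estimated abundance, which moves when the mix of transcripts differs. This was compared with limma on log2 length over 5383 genes with at least 10 expected counts in every library, of which 38.2% were called, 25.1% as longer and 13.1% as shorter in D17-c3. For tgo the annotation holds 2 transcripts of 2634 and 3108 bases with 1926 coding bases each. They differ at the 3′ end, so the mean length gives the share of the longer form. That form made up 92.6%, 95.1%, 87.7% and 89.4% of estimated tgo transcripts in D17-c3, against 71.7%, 75.3%, 83.1% and 78.7% in S2-DRSC. The shares did not overlap, and the mean length was 3066 ± 15.8 bases in D17-c3 and 3000 ± 23.2 bases in S2-DRSC (SD, n = 4 each; log2 0.03 ± 0.01, limma adjusted p = 0.00854). In absolute size the log2 length difference of tgo was at least as large as that of 72.8% of the genes compared. The tgo exons share 50 bases with CG11986 on the opposite strand.

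The mean length of sima ran the other way, with 5623, 5488, 5644 and 5695 bases in D17-c3 against 5774, 5819, 5792 and 5927 bases in S2-DRSC (log2 -0.05 ± 0.01, limma adjusted p = 0.0194). Every D17-c3 value was below every S2-DRSC value, and replicate 2 was the lowest. The annotated sima transcripts are 3543, 4704, 5978 and 6178 bases long, with 1278, 2607, 4779 and 4521 coding bases. All 8 means lay below 5978, so the 2 shorter forms held some share in every library, but with 4 transcripts the mean does not fix the shares. The 2 longest forms could make up between 53.2% and 79.9% in D17-c3 replicate 2 and between 83.0% and 97.9% in S2-DRSC replicate 4, and for every other pair of libraries across the lines these ranges overlapped. For trh the lengths had no call (limma adjusted p = 0.0717), and the other genes had too few counts in a line to be compared.

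For sim, transcripts from its most upstream start are 3162 and 3186 bases long, and the others are 2825 and 2882. The D17-c3 means of 3139 to 3151 bases place at least 84.5% to 88.4% of the estimated sim transcripts per library at the upstream start. In S2-DRSC the counts were too few to say.

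**Figure D4:**
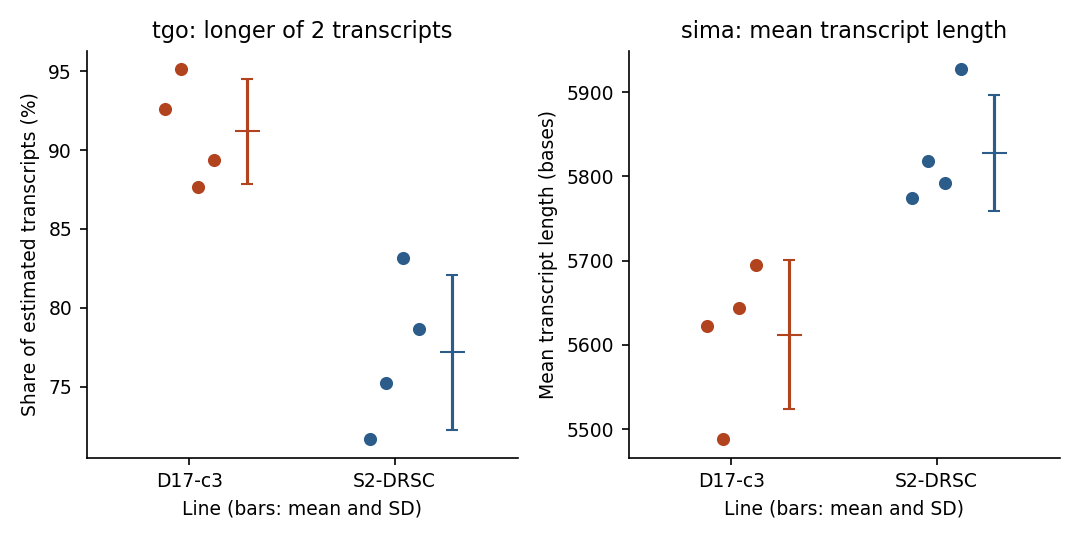
Left, share of the longer of 2 tgo transcripts (percent of estimated transcripts) per library; right, mean sima transcript length in bases; bars give the mean and SD of 4 libraries, and the axes do not start at 0. The tgo share is above 87% in all D17-c3 libraries and at most 83.1% in S2-DRSC, and the sima length is lower in all D17-c3 libraries.

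The other PAS genes were 7, all tested, with 3 higher in D17-c3, 2 higher in S2-DRSC and 2 without a call. Beside this, 39.1% of all genes tested were called toward D17-c3 and 36.1% toward S2-DRSC. Their median log2 fold change was -0.12, and 0.06 with library totals only. The juvenile hormone receptor genes were lower in D17-c3: gce averaged 7.36 ± 1.6 TPM in D17-c3 and 31.1 ± 2.48 TPM in S2-DRSC (log2 -2.37 ± 0.11), and Met 5.58 ± 0.98 against 9.23 ± 1.34 TPM (-0.98 ± 0.12). The coactivator gene tai was higher in D17-c3, at 85.2 ± 12.4 against 39.4 ± 3.31 TPM (log2 0.87 ± 0.09, edgeR adjusted p = 1.8e-05). The antennal selector gene ss had 0.04 ± 0.02 TPM in D17-c3 and 0.06 ± 0.02 TPM in S2-DRSC, with no call (edgeR adjusted p = 0.0549). The ss log2 fold change was -0.83 ± 0.35, and it was called toward S2-DRSC without D17-c3 replicate 1 (-1.07, edgeR adjusted p = 0.035) and without S2-DRSC replicate 2 (-1.0, edgeR adjusted p = 0.0434).

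Of the circadian genes on this list, the activator gene cyc was at 45.9 ± 5.30 TPM in D17-c3 and 34.0 ± 1.98 TPM in S2-DRSC, and its partner gene Clk at 0.24 ± 0.10 and 0.10 ± 0.05 TPM. The log2 fold change was 0.18 ± 0.06 for cyc, with 0.13 to 0.20 when single libraries were left out, and 1.03 ± 0.40 for Clk, with 0.77 to 1.3. Neither call held throughout: the 3 genes higher in D17-c3 became 1, tai, without D17-c3 replicate 1 or 4 or S2-DRSC replicate 3 or 4. The repressor gene per was at 0.92, 2.20, 0.60 and 0.78 TPM in D17-c3 against 0.90 to 1.08 TPM in S2-DRSC, with no call (edgeR adjusted p = 0.749). Without D17-c3 replicate 2 it was lower in D17-c3 (log2 -0.59, edgeR adjusted p = 0.00231).

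Sima protein is destroyed when oxygen is present: the prolyl hydroxylase Hph marks it and the ubiquitin ligase subunit Vhl binds the marked form. The genes of these regulators moved in opposite directions. Hph was at 340, 371, 258 and 291 TPM in D17-c3, against 118, 137, 122 and 80.8 TPM in S2-DRSC (log2 1.19 ± 0.14, edgeR adjusted p = 4e-05). Vhl was at 13.1, 10.8, 14.2 and 17.2 TPM in D17-c3, against 21.4, 23.3, 23.6 and 19.8 TPM in S2-DRSC (log2 -1.0 ± 0.16, edgeR adjusted p = 0.000278). Neither pair of groups overlapped.

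Among 19 genes of the oxygen response, all tested, 7 were higher in D17-c3, 5 in S2-DRSC and 7 had no call. Over all genes tested 39.1% were called toward D17-c3 and 36.1% toward S2-DRSC. The median log2 fold change of the list was 0.14. The largest rises were those of chrb and scyl, relatives of mammalian REDD1 that restrain TOR signalling. chrb was at 32.1 to 48.1 TPM in D17-c3 and 2.62 to 2.77 TPM in S2-DRSC (log2 3.73 ± 0.13), and scyl at 195 to 352 TPM and 17.8 to 20.1 TPM (3.58 ± 0.15). The guanylyl cyclase gene Gyc89Da was also higher, at 4.25 to 11.5 TPM in D17-c3 and 1.05 to 1.22 TPM in S2-DRSC (2.58 ± 0.29). Its relative Gyc89Db went the other way, at 0.72 to 1.98 TPM in D17-c3 and 3.20 to 4.2 TPM in S2-DRSC (-1.72 ± 0.29), and reads could be split between such copies, so each value is uncertain. The glucose transporter gene Glut1 fell most, to 0.32 to 0.46 TPM in D17-c3, against 8.36 to 10.7 TPM in S2-DRSC (-4.21 ± 0.15). Thor, which encodes the translation repressor 4E-BP, averaged 131 ± 44.0 TPM in D17-c3 and 242 ± 68.6 TPM in S2-DRSC (-1.15 ± 0.23, edgeR adjusted p = 0.00126), with overlapping TPM values.

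**Figure D5:**
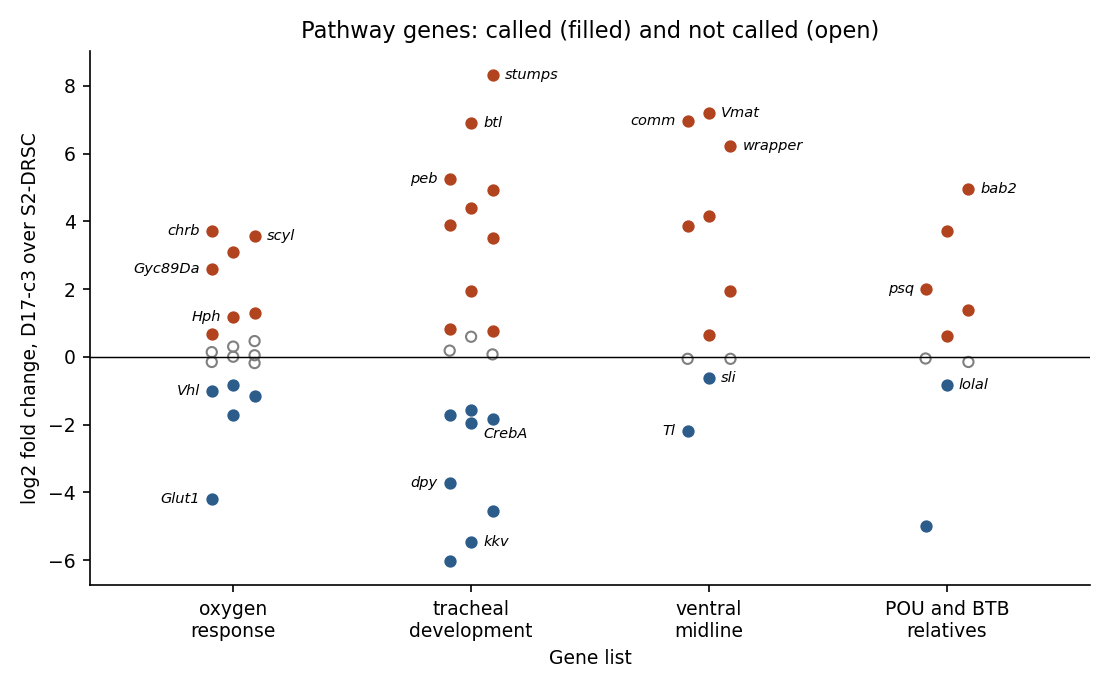
Fitted log2 fold change (D17-c3 over S2-DRSC) of the tested genes of 4 lists, filled where the adjusted p was under 0.05 and open otherwise, with some genes named. The FGF pathway genes stumps and btl stand at 8.32 and 6.91, and each list holds genes in both directions.

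Genes of tracheal development were split between the lines. Of 24 listed genes 21 were tested, 10 were higher in D17-c3, 8 in S2-DRSC and 3 had no call. The median log2 fold change was 0.59. Calls in both directions were also common over all genes tested, with 39.1% toward D17-c3 and 36.1% toward S2-DRSC, so the split is not particular to this list. The largest rises were those of the FGF pathway that steers tracheal branching: stumps, the adaptor gene, was at 125 to 163 TPM in D17-c3 and 0.31 to 0.39 TPM in S2-DRSC (log2 8.32 ± 0.16), and btl, the receptor gene, at 85.9 to 180 TPM and 0.71 to 0.95 TPM (6.91 ± 0.23). In the embryo btl is a target of Trachealess with Tango. Here trh was at or below 0.60 TPM in every library, and a part of trh, sim or tgo in the btl difference was not tested. The zinc finger gene peb was at 5.65 to 7.72 TPM in D17-c3 and 0.14 to 0.19 TPM in S2-DRSC (5.24 ± 0.14). Lower in D17-c3 were the chitin synthase gene kkv, at 0.10 to 0.41 TPM in D17-c3 and 5.92 to 8.01 TPM in S2-DRSC (-5.45 ± 0.37), dpy, which encodes a giant matrix protein, at 0.60 to 1.08 and 8.30 to 8.92 TPM (-3.72 ± 0.19), and CrebA, a regulator of secretion, at 13.4 to 34.3 and 65.7 to 74.1 TPM (-1.95 ± 0.22).

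Several midline genes were higher in D17-c3, and a part of sim in this was not tested. Of 14 listed genes 11 were tested, 7 were higher in D17-c3, 2 in S2-DRSC and 2 had no call. Over all genes tested the shares were 39.1% toward D17-c3 and 36.1% toward S2-DRSC. Among the 7, oc and Oli held 0 to 3 counts per S2-DRSC library and entered the test only through D17-c3. With them, the median log2 fold change was 1.94 against 0.04 over all genes tested. With at least 1 CPM in 4 libraries the median of the list was 0.69, and on log2(TPM + 1) it was 0.36. The monoamine transporter gene Vmat was at 7.14 to 9.61 TPM in D17-c3 and 0.05 to 0.07 TPM in S2-DRSC (log2 7.21 ± 0.14). comm, which controls the axon guidance receptor Robo, was at 23.3 to 27.3 TPM in D17-c3 and 0.09 to 0.22 TPM in S2-DRSC (6.96 ± 0.22). wrapper, a gene of midline glia, was at 29.6 to 38.1 TPM in D17-c3 and 0.26 to 0.46 TPM in S2-DRSC (6.22 ± 0.19). The classical midline genes Tl and sli were lower in D17-c3, Tl at 3.68 to 5.14 TPM in D17-c3 and 15.3 to 18.4 TPM in S2-DRSC (-2.20 ± 0.11) and sli at 37.0 to 56.1 and 56.3 to 63.0 TPM (-0.63 ± 0.14).

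Among 10 POU and BTB genes related to vvl and rib, 9 were tested, 5 were higher in D17-c3, 2 in S2-DRSC and 2 had no call. The shares over all genes tested were 39.1% toward D17-c3 and 36.1% toward S2-DRSC. The median log2 fold change of the list was 0.61. Among the genes higher in D17-c3, nub held 8 to 12 counts per S2-DRSC library and entered the test only through D17-c3. The POU genes were low in both lines. acj6 averaged 0.66 TPM in D17-c3 and 0.04 TPM in S2-DRSC (log2 3.71 ± 0.20). pdm3 averaged 0.04 and 0.89 TPM (-5.00 ± 0.28), and nub 0.11 and 0.04 TPM (1.39 ± 0.25). pdm2 was not tested. The BTB genes were expressed far above rib in both lines. bab2 was at 31.6 to 53.1 TPM in D17-c3 and 1.00 to 1.34 TPM in S2-DRSC (log2 4.96 ± 0.19), psq at 157 to 226 and 35.7 to 40.0 TPM (1.99 ± 0.13), and ttk at 77.6 to 145 and 54.1 to 61.8 TPM (0.61 ± 0.12). lolal was at 114 to 142 TPM in D17-c3 and 187 to 201 TPM in S2-DRSC (-0.84 ± 0.06). Called genes of these lists that are named above all had edgeR adjusted p-values under 0.05, and the marker sums of disc and hemocyte genes differed between the same libraries, so their part in these differences was not tested.

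The genes whose profile was closest to that of each expressed factor were found by the root mean square difference of log2(TPM + 1) over the 8 libraries. They were bru3 (0.17) and sunn (0.26) for sim, CG9992 and grass (both 0.09) for tgo, Pkn and pico (both 0.10) for sima, and Shawl (0.09) and Oatp58Db (0.11) for dysf. bru3 averaged 19.8 TPM in D17-c3 and 0.03 TPM in S2-DRSC. Pkn averaged 73.5 TPM in D17-c3 and 44.3 TPM in S2-DRSC.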

How the data were processed

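RNA of 4 D17-c3 and 4 S2-DRSC flasks was sequenced with a stranded mRNA kit, per the labels' protocols. Per the submitters' processing notes the tools were RSEM, DESeq2 1.30.1, STAR 2.7.3a, Trim Galore 0.6.4, Subread 2.0.0 and featureCounts, with dm6 and BDGP6 as builds and no roles given. Per the file headers the authors deposited 1 RSEM gene table per library, and its expected counts, made by RSEM before deposit by sharing out reads among transcripts, were not whole for 16.8% to 18.2% of values. The deposited TPM values are levels per length without depth. The deposited FPKM values equalled those recomputed from counts for 99.44% or more of genes and entered no test. The deposited length columns are in bases, an other unit. No source used here says whether strand was counted. Positions come from Ensembl release 115 of BDGP6, which held 17633 of the gene identifiers. BNIP3 and dp of the lists are CG5059 and dpy in the files.

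Expected counts were rounded and fitted in R 4.3.3 with edgeR 4.0.16 (TMM, filterByExpr, quasi-likelihood, line as the only term, prior degrees of freedom 3.23), Benjamini-Hochberg over all tested genes, threshold 0.05. SEs were derived from each log2 fold change and its F statistic. Lengths were fitted with limma 3.58.1. Tested on simulated data for this comparison over 11606 genes, the count fit called 26% of genes changed 1.5-fold and 80% of genes changed 2-fold. It called 0.0526% of unchanged ones. In the simulation 11406 genes were unchanged, while in the data 75.2% were called, so it could not test the TMM assumption that most genes are equal. Over 5383 genes the length fit called 93% of genes shifted 1.15-fold. A floor of 3 counts was 0.0294 to 0.038 CPM, and floors cover counting error only. Replicates differed by a chi-square of at least 8.18 per degree of freedom. Flasks of 1 stock may vary less than independent derivations of a line would.

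The 7 genes and all lists were chosen with earlier results of these data known. The text names all 7, the other PAS genes, Hph and Vhl. For each other list it names up to 3 called genes in each direction, ranked by fold change among those with at least 1 TPM in the higher line. Beside these it names some genes at lower levels, among them oc, Oli and the POU genes. Alternatives were other scalings, filters, DESeq2 1.42.0, limma on log2(TPM + 1) and log2(TPM + 0.1), the replicate block and leaving out each library.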

Additional observations from a re-analysis of the deposited data

Results flagged for a closer look

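Among 104 sets of 4 libraries with a level of at least 1 TPM, taken over the genes of the factors and the 5 pathway lists, 10 had a library apart from the other 3 by Dixon's test, where chance alone would give about 1 in 20. S2-DRSC replicate 4 was low for sima at 33.4 TPM against 44.7 to 45.7 TPM in the other S2-DRSC libraries. The same library was low for ERR (14.9 TPM), pnt (640 TPM), crb (9.19 TPM), robo1 (24.7 TPM) and lola (273.9 TPM). D17-c3 replicate 2 was high for Pdk, at 93.3 TPM against at most 40.2 TPM in the other D17-c3 libraries. It was low for Pfk, at 49.2 TPM against at least 71.4 TPM. D17-c3 replicate 3 was low for foxo (14.3 TPM, the others at 19.6 TPM or more) and for lolal (114 TPM, the others at 139 TPM or more).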

How the results depend on the processing

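Among the values of single genes under the alternatives, 1119 stayed on the same side of the threshold, 17 lost the call and 23 gained one. Of the 1119, 36 values of 10 genes had another sign than in the analysis reported, none of them past the threshold in either. The 6 tested factors kept their calls in every alternative in which they were tested, except tgo. The count of factors called toward S2-DRSC was 1 in place of 2 with library totals only and in the limma tests on log2(TPM + 1) and log2(TPM + 0.1). With the replicate number as a block, the sim log2 fold change was 8.57, and the number of factors with a longer transcript length in D17-c3 was 0 in place of 1 (the tgo log2 length difference had a limma adjusted p of 0.0677). Under the block cyc also lost its call and ss gained one. Deviations of same-numbered libraries correlated at -0.141 to 0.199, and those of libraries with other numbers at -0.261 to 0.364. Same-numbered libraries thus did not stand out, but 4 libraries per line are too few to exclude a batch shared by number. Leaving out 1 library, the number of other PAS genes higher in D17-c3 ran from 1 to 3. The number of factors with a shorter length then ran from 1 to 2, the second being trh without S2-DRSC replicate 1. The causes were not tested. On log2(TPM + 1) the fold changes of low genes shrink by construction, to 4.01 for sim, -1.72 for dysf and 0.21 for rib. Depth limits vvl, at 14 D17-c3 and 10 S2-DRSC counts, and the size of the sim and dysf folds, which rest on 34 and 26 counts in the lower line.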
